A study of Macaca mulatta with 12 samples.

Results

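The genes described are the heparan sulfate proteoglycans and the enzymes that make and trim their chains, in nuclei of the rhesus macaque amygdala. They were chosen by a rule on gene names, as glypicans (GPC), syndecans (SDC), chain polymerases (EXT and EXTL), N-deacetylase N-sulfotransferases (NDST), the sulfotransferases HS2ST, HS3ST and HS6ST, and the endosulfatases SULF1 and SULF2. That rule found 25 members among 19708 gene rows: 4 glypicans, 4 syndecans, 4 chain polymerases, 4 NDST genes, 1 2-O-sulfotransferase, 3 3-O-sulfotransferases, 3 6-O-sulfotransferases and 2 endosulfatases. NDST2 and HS6ST3 were listed under Ensembl identifiers (ENSMMUG00000022976 and ENSMMUG00000005847), and the other 23 by symbol. The study profiled RNA of single nuclei from frozen, surgically removed amygdala of Macaca mulatta. Its 12 labelled samples form 1 group, with 3 specimen numbers and 4 library numbers, and the labels used here give no treatment, age or sex. The deposited table holds 26400 nuclei and 151526883 UMIs (unique molecular identifiers, which count captured RNA molecules). Barcodes carry 1 of 3 suffixes that no label ties to a sample, so all nuclei are 1 pool and no test over animals was possible.

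Heparan sulfate is a long sulfated sugar chain attached to core proteins at the cell surface. Glypicans are held in the membrane by a lipid anchor and syndecans span it, and both carry chains that bind growth factors, morphogens and synaptic adhesion proteins. EXT1 and EXT2 extend the chain together, NDST enzymes start its sulfation, the 2-O-, 6-O- and 3-O-sulfotransferases add further sulfate groups, and SULF1 and SULF2 remove 6-O-sulfate outside the cell. In the brain these chains are known for roles in axon guidance, in the signalling of oligodendrocyte precursors and in synapse formation, where glypicans released by astrocytes act on neurons.

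After removal of presumed doublets, 24538 nuclei remained, and sets of marker genes named 10 classes, each meaning nuclei like that type by its markers: 11104 excitatory neurons, 4087 inhibitory neurons, 6002 astrocytes, 793 ependymal cells, 371 oligodendrocyte precursors, 98 committed precursors, 449 oligodendrocytes, 186 microglia, 164 mural cells and 87 endothelial cells. Of the markers detected, 6 of 7 in excitatory neurons, 8 of 9 in astrocytes (not RYR3) and all in the other 8 classes reached 2-fold over their average in the other classes. These markers include those used to name the clusters, so the count is no independent check of the names. Another 1197 nuclei stayed unnamed, 4.88% of those kept. Median depth was 7924 UMIs per excitatory nucleus and 5617 per inhibitory nucleus, and 1107 to 2643.5 in the other classes. Neuronal RNA was present in every glial class: the synaptic gene SYT1 stood at 866 CPM (UMIs of a gene per 1000000 UMIs of the class) in astrocytes and 1344 CPM in oligodendrocytes against 3232 CPM in excitatory neurons, and the neuronal gene RBFOX3 at 51.6 CPM in astrocytes against 836 CPM in excitatory neurons. Its part in the glial levels below was not tested. The levels are of nuclear RNA read at the 3′ end with no scale per length, so they are compared between classes for 1 gene and not between genes. Intervals are exact 95% Poisson intervals of the summed UMIs, and intervals of log2 ratios are exact conditional ones; both cover counting error only.

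Across the 10 classes, 18 of the 23 members measured (78.3%) reached 2-fold over the other classes in at least 1, against 50.4% of all genes kept out of the clustering. A gene counted as measured where 1 of both sides had 50 UMIs or more, and where neither side would have under 10 at the higher of both levels. Of 178 measured pairs of a member and a class, 25 reached 2-fold over the average of the other 9 classes (14%), against 10.2% of such pairs over all genes kept out of the clustering. Astrocytes had the most, 8 of 22 measured members (background 8.84%): SDC4, SDC2, HS3ST3A1, GPC4, SULF1, EXT1, GPC5 and HS2ST1. Oligodendrocyte precursors had 4 of 20 (background 5.53%): SULF2, HS6ST2, SDC3 and GPC6. Excitatory neurons had 2 of 23 (background 10.2%), NDST4 and HS3ST6, and inhibitory neurons 3 of 23 (background 8.55%), NDST3, HS3ST3A1 and HS3ST6. In the calls of HS3ST6 and HS3ST3A1, classes with 0 UMIs entered the average as 0 CPM. Several of those classes were too shallow to show the levels called. Endothelial cells had 3 of 12 (background 18.8%), GPC5, HS3ST1 and NDST1, and mural cells 3 of 15 (background 12.8%), SDC2, GPC6 and HS6ST1. Microglia had 1 of 12 (background 17.6%), HS3ST1, and ependymal cells 1 of 21 (background 13.3%), GPC4. Oligodendrocytes and committed precursors had none, of 18 and 12 measured members and with backgrounds of 7.33% and 7.69%.

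**Figure D1:**
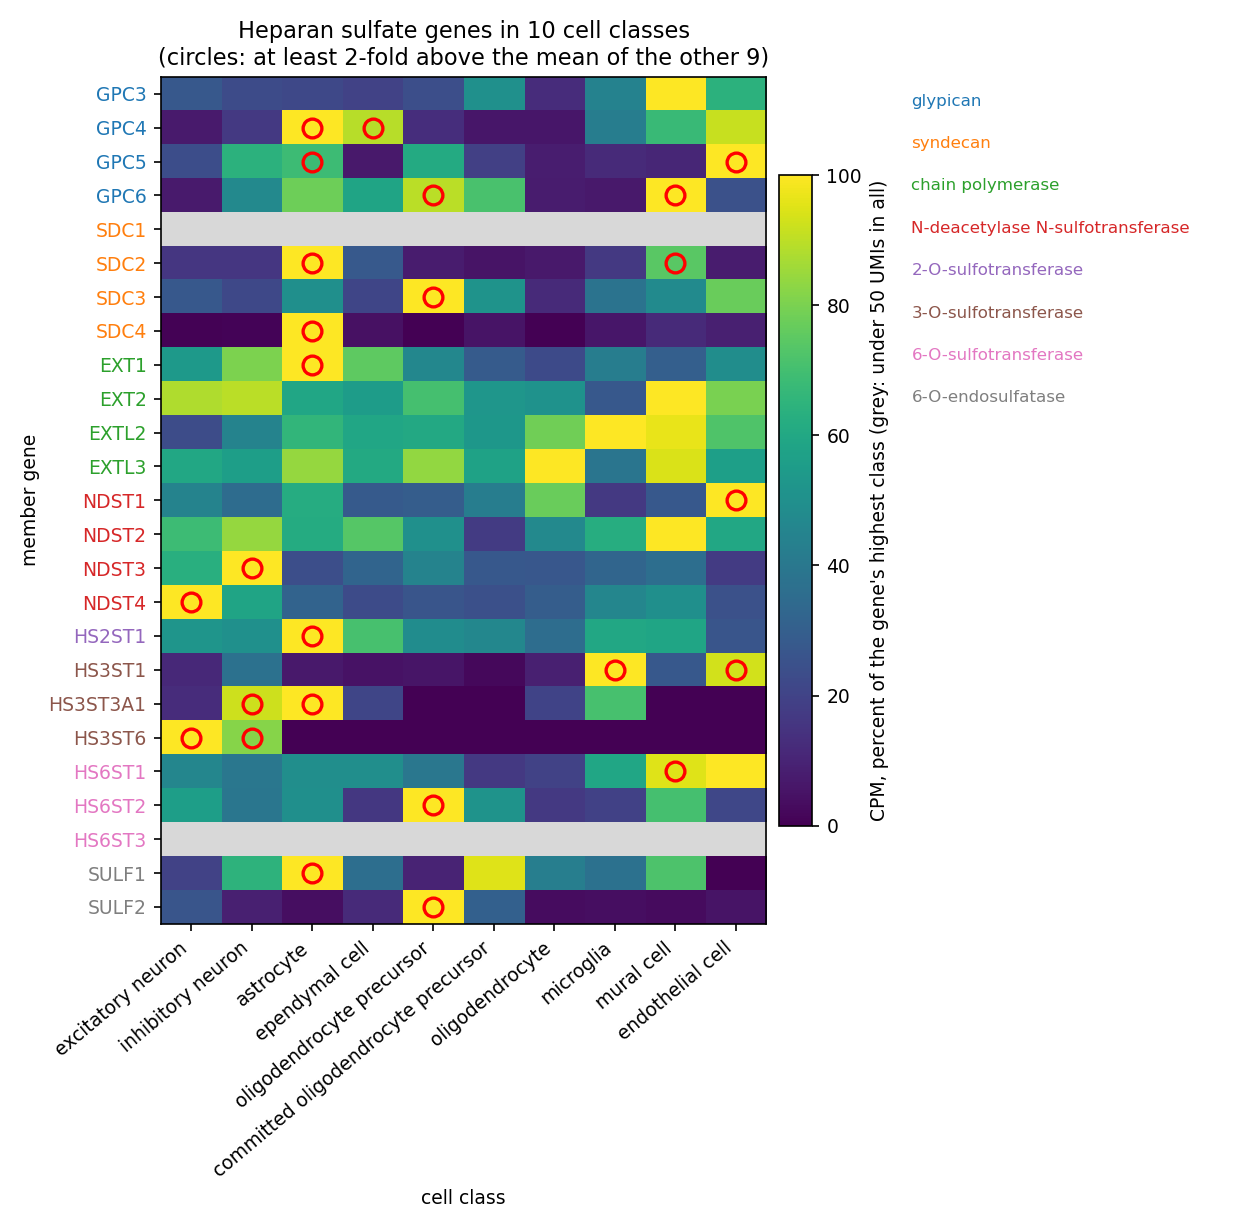
Level of each member (rows, coloured by role) in 10 cell classes (columns), as CPM in percent of that gene's own highest class; red circles mark values that reach 2-fold over the average of the other 9 classes, and grey rows are members with under 50 UMIs in all classes. Astrocytes hold 8 of the 25 circles, oligodendrocyte precursors 4 and oligodendrocytes none.

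Among the core proteins, GPC4, GPC5 and GPC6 each differed at least 2-fold between excitatory and inhibitory neurons and between classes. GPC5, a glypican of neural tissue, stood at 1080, 1124 and 1154 CPM in the astrocytes of barcode sets 1, 2 and 3, and at 1118 CPM (95% interval 1098 to 1138) over all. Inhibitory neurons held 1043, 945 and 1166 CPM in the 3 sets, and excitatory neurons 391, 385 and 376 CPM. Inhibitory neurons thus lay above excitatory neurons in every set. Of the inhibitory GPC5 UMIs, however, 70.1% were in 2 sub-clusters described below, I9 and I10, with 12.6% of the nuclei in sub-clusters. The median over the 14 inhibitory sub-clusters was 241 CPM, and over the 13 excitatory sub-clusters 74.8 CPM. Of the excitatory GPC5 UMIs, 34.5% were in sub-clusters E7 and E11, with 7.09% of the nuclei in sub-clusters. A GPC5 UMI was found in 44.6% of inhibitory and 57.1% of excitatory nuclei. Oligodendrocyte precursors came close to the astrocytes with 997 CPM (931 to 1066), whereas ependymal cells held the lowest level, 112 CPM. The highest GPC5 level was that of endothelial cells, 1633 CPM (1440 to 1845), with 1163, 1960 and 1699 CPM in the sets. It rests on 258 UMIs in 51 of 87 nuclei, and the 4 nuclei with the most GPC5 gave 41.5% of them. When clusters were named without the rule on doublet scores, endothelial GPC5 was 1.06 log2 units above the mean of the other classes, in place of 1.72. In astrocytes GPC5 was 2.02-fold above the mean of the other classes, at the threshold, and it was under 2-fold (0.99 log2 units) without barcode set 1 or without set 3.

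GPC6, a glypican that astrocytes are known to release, was at 1273, 1287 and 1196 CPM in astrocytes and at 816, 764 and 699 CPM in inhibitory neurons. Excitatory neurons held 109, 116 and 118 CPM, so the groups did not overlap. Its highest levels were in mural cells, 1611 CPM (1454 to 1781), and in oligodendrocyte precursors, 1442 CPM (1362 to 1525), whose intervals overlap. The precursors were 2.01-fold above the mean of the other classes. That value was under 2-fold in 4 of the alternatives, from 0.85 log2 units without barcode set 2 to 0.99 with nuclei thinned to 1000 UMIs. Microglia had the lowest level, 109 CPM.

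GPC4, another glypican that astrocytes are known to release, stood at 62.9, 61.9 and 61.5 CPM in astrocytes and at 48.1, 63.8 and 54.2 CPM in ependymal cells. Both exceeded the mean of the other classes by 2-fold or more (2.65-fold and 2.29-fold). The endothelial level, 57.0 CPM on few nuclei (26.0 to 108), could not be told from theirs. Neurons held far less, 4.50 CPM in excitatory and 10.3 CPM in inhibitory neurons, and oligodendrocytes 3.73 CPM, which is 3 UMIs. GPC3 was low everywhere, and no class where it was measured reached 2-fold above the mean of the others. Its highest value, 29.5 CPM in mural cells, rests on 7 UMIs (11.9 to 60.8), too few to count as measured. In the reference annotation, of assembly T2T-MMU8v2.0, GPC5 and GPC6 are neighbours with 0 protein-coding genes between them, and so are GPC4 and GPC3.

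The syndecans parted by glial class. SDC4, a widely expressed syndecan that acts at cell adhesions, stood at 74.7, 68.4 and 72.6 CPM in astrocytes of the 3 sets and at 0.44 CPM in excitatory and 0.73 CPM in inhibitory neurons. No other class exceeded 8.44 CPM, the mural level of 2 UMIs, and precursors and oligodendrocytes held 0 UMIs, which allows up to 4.33 and 4.59 CPM. Astrocytes were 23.7-fold above the mean of the other classes, or 4.57 log2 units. The difference was 5.89 log2 units with each nucleus thinned to 1000 UMIs and 3.57 without the rule on doublet scores. SDC2, which is found at dendritic spines in neurons, was also highest in astrocytes, at 335, 358 and 326 CPM, 5.05-fold above the mean of the others. Mural cells followed with 253 CPM (193 to 326), while excitatory and inhibitory neurons held 53.7 and 53.4 CPM, a log2 difference of 0.01 (-0.08 to 0.10).

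SDC3, the neural syndecan, was highest in oligodendrocyte precursors, with 113, 128 and 103 CPM, 2.60-fold above the mean of the other classes. The endothelial level of 88.6 CPM has a wide interval (48.4 to 149) that overlaps it. Oligodendrocytes held the least SDC3, 13.7 CPM. SDC1, known mainly from epithelia and plasma cells, had 22 UMIs in all nuclei and was measured in no comparison.

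Of the chain polymerases, EXT1 reached 2-fold above the mean of the other classes in astrocytes, and its partner EXT2 did so in no class. EXT1 stood at 1128, 1157 and 1110 CPM in astrocytes, 2.10-fold above the mean of the other classes, and its lowest level was 253 CPM in oligodendrocytes. Without the rule on doublet scores the astrocyte difference was 0.89 log2 units. EXT2 ranged from 35.0 CPM in microglia, on 8 UMIs, to 127 CPM in mural cells, with both neuron classes near 112 CPM (111 and 113). The microglial EXT2 level was at least 2-fold below the mean of the other classes. EXTL2 and EXTL3, which act at the start of the chain, were 2-fold above the others in no class where they were measured. EXTL2 ranged from 8.13 CPM in excitatory neurons to 35.0 CPM in microglia, and EXTL3 from 17.5 CPM in microglia to 44.8 CPM in oligodendrocytes. The excitatory EXTL2 level was at least 2-fold below the mean of the other classes.

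NDST3 and NDST4 had their highest class levels in neurons, and NDST1 and NDST2 did not. NDST3 was at 252, 267 and 247 CPM in inhibitory neurons and 163, 157 and 164 CPM in excitatory neurons, with 44.3 to 114 CPM in the 8 other classes. Summed per class, NDST4 showed the opposite order, with 72.7, 75.1 and 80.6 CPM in excitatory neurons and 47.8, 41.5 and 43.6 CPM in inhibitory neurons. Of the excitatory NDST4 UMIs, however, 49.1% were in sub-clusters E10 and E11, described below, with 4.35% of the nuclei in sub-clusters. The median NDST4 level was 22.1 CPM over the excitatory and 28.9 CPM over the inhibitory sub-clusters. Mural cells (38.0 CPM, 17.4 to 72.1) and microglia (35.0 CPM, 15.1 to 68.9) could not be told from inhibitory neurons. Only the 2 neuron classes reached 2-fold, inhibitory neurons for NDST3 (2.95-fold) and excitatory neurons for NDST4 (2.87-fold). The part of neuronal RNA in the NDST3 and NDST4 levels outside neurons was not tested. NDST1, the widely expressed form, was highest in endothelial cells at 184 CPM (123 to 264), on 29 UMIs, and in oligodendrocytes at 142 CPM (117 to 170), and those intervals overlap. The endothelial call was lost in 3 of the other clusterings and namings, where it ran from 0.78 to 0.81 log2 units. NDST2 was within 2-fold in every class where it was measured. Its highest level was that of mural cells, 21.1 CPM on 5 UMIs, too few to count as measured.

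The sulfotransferases that act later on the chain were each placed differently. HS2ST1, the single 2-O-sulfotransferase, was found in all classes, from 127 CPM in endothelial cells to 480 CPM (467 to 493) in astrocytes, where it was 2.00-fold above the mean of the others and, in 3 of the alternatives, between 0.95 and 0.99 log2 units. HS6ST2 was highest in oligodendrocyte precursors, at 214, 167 and 153 CPM, 2.64-fold above the mean of the other classes. HS6ST1 reached 2-fold in mural cells on only 10 UMIs (42.2 CPM, 20.2 to 77.6), and was under 2-fold in 5 of the alternatives, from 0.55 to 0.90 log2 units, and 1.79 with thinning. Endothelial cells held 44.3 CPM of HS6ST1 (17.8 to 91.3) on 7 UMIs, too few to count as measured, and could not be told from mural cells. HS6ST3 had 40 UMIs in all nuclei, 29 of them in excitatory neurons, and was measured in no comparison.

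HS3ST1, the 3-O-sulfotransferase known for making the antithrombin-binding form of the chain, was highest in microglia and endothelial cells. Microglia held 93.9, 266 and 193 CPM, 42 UMIs over 37 nuclei, and endothelial cells 200.5, 96.4 and 240 CPM, 27 UMIs over 15 nuclei. Their overall levels, 184 CPM (132 to 248) and 171 CPM (113 to 249), could not be told apart. All other classes were at or below the 68.6 CPM of inhibitory neurons. HS3ST3A1 had 335 UMIs in all, and its class levels were 6.17 CPM in astrocytes, 5.70 CPM in inhibitory neurons and 0.79 CPM in excitatory neurons. Its astrocyte difference was 0.48 log2 units at a Leiden resolution of 1.0 in place of 2.05. Precursors held 0 UMIs, which allows up to 4.33 CPM, below the astrocyte (4.77 to 7.84) and inhibitory (4.79 to 6.72) intervals. In committed precursors, mural and endothelial cells 0 UMIs allow up to 13.6, 15.6 and 23.3 CPM, so a difference from those classes was not detectable at this depth. Among the classes HS3ST6 was found in neurons alone, with 61 UMIs in excitatory and 13 in inhibitory nuclei. Astrocytes had 0 UMIs, which allows up to 0.34 CPM against 0.65 CPM in excitatory neurons, and the smaller classes were too shallow for a comparison.

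The endosulfatases were split between cell types. SULF2 was at 916, 1040 and 904 CPM in oligodendrocyte precursors, 9.27-fold above the mean of the other classes, and 314 of 371 precursor nuclei had a UMI. The committed precursors followed with 292 CPM (231 to 364) and excitatory neurons with 252 CPM (249 to 255). SULF1 was highest in astrocytes, at 23.4 CPM (20.6 to 26.4). Committed precursors, at 22.2 CPM on few nuclei (8.14 to 48.3), could not be told from them. Endothelial cells held 0 UMIs, which allows up to 23.3 CPM and so overlaps the astrocyte interval. The SULF1 call in astrocytes was 1.25 log2 units and was lost under 4 alternatives, where it ran from 0.33 to 0.75.

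Several members were lower in oligodendrocytes than in their precursors. Of the 10 members measured between oligodendrocytes and their precursors, 6 were at least 2-fold lower in oligodendrocytes and 1 was higher, against background shares of 17.9% lower and 14.6% higher. The median over these members was -1.82 log2 units, beside -0.02 over all genes kept out of the clustering. Of the 10, SULF2, HS6ST2 and SDC3 reached 50 UMIs only in precursors, and NDST1 only in oligodendrocytes. The share lower depended on this minimum. It was 6 of 13 with 20 UMIs required (46.2%, background 15.5%) and 9 of 22 with no level minimum (40.9%, background 18.9%). SULF2 stood at 916, 1040 and 904 CPM in precursors and at 35.0, 15.4 and 44.3 CPM in oligodendrocytes, a log2 difference of -4.88 (-5.50 to -4.32). GPC6 differed by -3.56 (-3.88 to -3.27), SDC3 by -3.07 (-4.12 to -2.17), GPC5 by -2.93 (-3.24 to -2.64), HS6ST2 by -2.59 (-3.27 to -1.96) and EXT1 by -1.05 (-1.30 to -0.81), all in the same direction in 3 of 3 sets. The committed precursors lay between both ends for all 6. GPC6 was still at 1150 CPM in them, whereas SULF2 and GPC5 were already at 292 and 307 CPM.

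NDST1 went the other way, with 68.0, 42.7 and 49.6 CPM in precursors, 39.9, 97.7 and 102 CPM in committed precursors and 127, 174 and 127 CPM in oligodendrocytes. The log2 difference between the ends was 1.39 (0.89 to 1.92). NDST3, EXT2 and HS2ST1 were within 2-fold, at -0.71, -0.46 and -0.44. SYT1 was similar at both ends, 1493 and 1344 CPM. Without the rule on doublet scores the difference of GPC6 was -2.28, of GPC5 -1.71, of SDC3 -2.47 and of EXT1 -0.31, which is under 2-fold. EXT1 was also under 2-fold without barcode set 1, at -0.84, and SULF2 was -4.24 with presumed doublets kept.

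**Figure D2:**
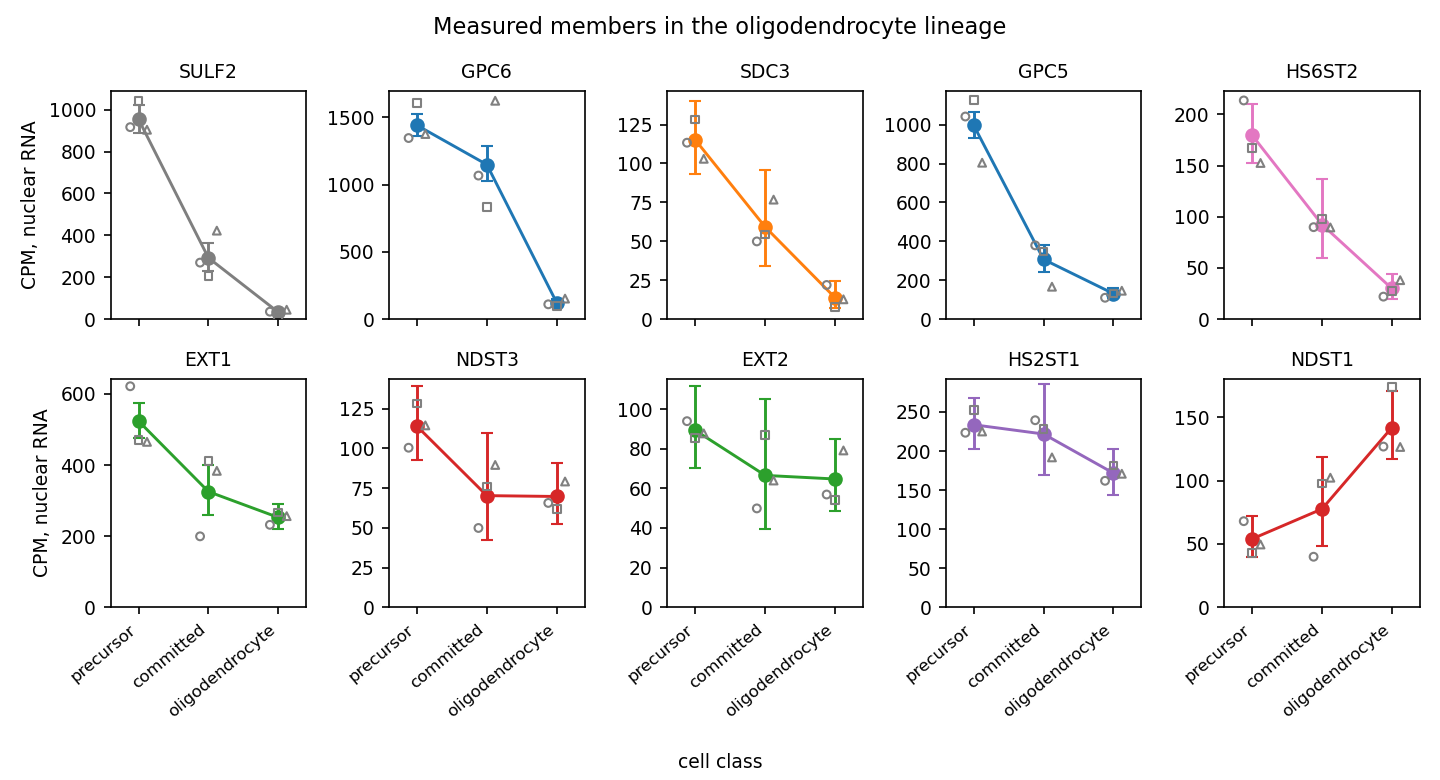
CPM of the 10 measured members in oligodendrocyte precursors, committed precursors and oligodendrocytes (filled points with exact 95% Poisson intervals; open circles, squares and triangles are barcode sets 1, 2 and 3). SULF2 goes from 953 to 292 to 32.4 CPM and NDST1 from 54.0 to 77.6 to 142 CPM.

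Genes around the chain were mostly lower in oligodendrocytes too. Of 7 measured linker and precursor enzymes, 5 were at least 2-fold lower in oligodendrocytes, with XYLT1, which starts the chain on the core protein, at 340 against 4500 CPM (-3.73). UGDH and PAPSS2, which make the sugar and sulfate donors, differed by -2.58 and -2.57 log2 units, and SLC35D2, a nucleotide sugar transporter, was higher by 1.83. Of 17 measured protein partners 11 were lower, including LRRTM4 (-3.26), CASK (-3.22) and FGF13 (-2.48), and 3 were higher: FGFR2 (4.71), PTPRD (1.72) and PTN (1.597). Among the enzymes of chondroitin sulfate, the related chain, 3 of 4 measured were lower: CSGALNACT1 (-4.55), CHST9 (-4.20) and UST (-1.49). In the list of other heparan sulfate proteoglycans, which is reported in part, SPOCK3 (1.48) was among the higher genes and NRXN2 (-1.18) among the lower. Neither of the 2 measured genes of shedding and breakdown reached 2-fold.

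Astrocytes were divided into clusters with high and low GFAP, the intermediate filament of astrocytes. GPC5 was 557, 563 and 559 CPM in the 2171 GFAP-high nuclei and 1334, 1388 and 1460 CPM in the GFAP-low nuclei, a log2 difference of -1.31 (-1.38 to -1.24). Of 21 measured members it was 1 of 2 past 2-fold, with backgrounds of 0.271% lower and 0.601% higher. The GPC5 difference shrank to -0.54 when astrocytes were clustered on all genes but members and lists, and to -0.24 at a Leiden resolution of 1.0. The other was HS3ST3A1, with 15.1, 11.8 and 17.7 CPM in GFAP-high and 2.03, 1.58 and 2.27 CPM in GFAP-low nuclei (52 and 14 UMIs, log2 difference 2.92). Its direction depended on the clustering: it was -1.70 with presumed doublets kept and -2.61 with clustering on all genes but members and lists, and it was 0.65 at a Leiden resolution of 1.0. The other 19 members lay between -0.38 (SDC4) and 0.87 (SULF1). Of the pathway lists, FGFR3, a growth factor receptor, was the only gene past 2-fold (-1.20).

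In those 2 alternative clusterings the HS3ST3A1 RNA sat in a small separate cluster, within the class named astrocytes, with low GFAP. That cluster had 234 and 256 nuclei, 207 of them shared, and 230 and 253 of them lay in the GFAP-high cluster of the main analysis. With presumed doublets kept, it held 113 CPM of HS3ST3A1 on 43 UMIs, and the other astrocytes 2.13 CPM on 22 UMIs. GPC4 was also higher there, 181 against 57.5 CPM. GPC5 (129 against 1161 CPM), GPC6 (447 against 1287 CPM) and SDC4 (1 UMI, 2.63 CPM against 74.3 CPM) were lower. All 3 barcode sets contributed, with 89, 71 and 74 nuclei. Its median depth of 1580 UMIs was near the 1744 of the other astrocytes, and RBFOX3 was alike, 55.2 and 49.5 CPM. Of 9 astrocyte markers 7 were lower there, from GLI3 (649 against 799 CPM) to ALDH1A1 (63.1 against 806 CPM), with GFAP at 124 against 394 CPM. SLC1A3 (2395 against 2257 CPM) and RYR3 (302 against 279 CPM) were not. Of the markers of oligodendrocyte precursors, VCAN was higher (376 against 122 CPM) and PDGFRA lower (205 against 317 CPM). The cluster was singled out after its values were seen. At a Leiden resolution of 1.0, 196 of its 207 shared nuclei were left unnamed, and the astrocyte class held 21 HS3ST3A1 UMIs in place of 66.

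Genes of the surrounding pathway were both higher and lower in astrocytes. Over all genes kept out of the clustering 8.84% were at least 2-fold higher there and 17.5% lower. Of 23 measured protein partners, 6 reached 2-fold over the average of the other classes and 9 were lower. ANOS1 (3.42) and FGF2 (2.33), both known to bind heparan sulfate, were among the higher, and FGFR3 had 125 UMIs in astrocytes and 7 in all other classes. LRRTM4 (-1.95), FGF14 (-1.55) and SLIT2 (-1.47) were among the lower. Of 12 measured linker and precursor enzymes none was higher and 3 were lower: PAPSS2 (-2.92), GLCE (-1.94) and UGDH (-1.57). In the list of other heparan sulfate proteoglycans, also reported in part, CD44 (1.78) was among the higher genes and SRGN (-6.09), COL18A1 (-2.60) and SPOCK3 (-2.23) among the lower. Among 7 measured genes of shedding and breakdown, SGSH (1.78) was higher and HPSE2 (-1.49, in 2 of 3 sets) lower. CHST7 (2.07) and CHPF (1.21) were the 2 higher of 13 chondroitin sulfate enzymes, and CHST15 (-2.61) and UST (-1.83) the 2 lower.

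Between the neuron classes, GPC4, GPC5, GPC6, SULF1 and a pair of 3-O-sulfotransferases were higher in inhibitory neurons and SULF2 in excitatory neurons. Of 22 measured members, 6 were at least 2-fold lower in excitatory neurons and 1 was higher, against background shares of 8.36% lower and 8.58% higher. The median over the members was -0.01 log2 units, beside -0.10 over all genes kept out of the clustering. Every one of the 7 had the same direction in 3 of 3 sets. Of the 4 glypicans, 3 were lower in excitatory neurons, with log2 differences for GPC6 of -2.73 (-2.77 to -2.70), GPC5 of -1.45 (-1.47 to -1.43) and GPC4 of -1.19 (-1.42 to -0.96). Sub-clusters I9 and I10 held 70.1% of the inhibitory GPC5 UMIs, and I2, I5 and I11 held 81.8% of the inhibitory GPC6 UMIs. The differences without these sub-clusters were not tested. Medians over the inhibitory and the excitatory sub-clusters were 241 and 74.8 CPM for GPC5 and 192 and 82.3 CPM for GPC6. The GPC4 value depended on weighting, at -0.92 for a mean over nuclei and -2.48 without the PROX1-highest cluster described below.

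HS3ST1 stood at 20.03, 22.1 and 22.2 CPM in excitatory and 64.8, 70.1 and 71.1 CPM in inhibitory neurons, a log2 difference of -1.68 (-1.77 to -1.58). HS3ST3A1 differed by -2.84 (-3.27 to -2.43) on 75 and 140 UMIs, and by -3.67 with nuclei thinned to 1000 UMIs. Of its inhibitory UMIs, 72.1% were in sub-cluster I1, described below, and the difference without I1 was not tested. The endosulfatases went opposite ways. SULF2 was at 248, 258 and 250 CPM in excitatory and 80.7, 83.3 and 89.5 CPM in inhibitory neurons (1.58, 1.51 to 1.64), whereas SULF1 was at 4.63 and 15.1 CPM (-1.71, -1.91 to -1.50). The other 15 members lay within 2-fold, from EXTL2 at -0.94 to NDST4 at 0.78.

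**Figure D3:**
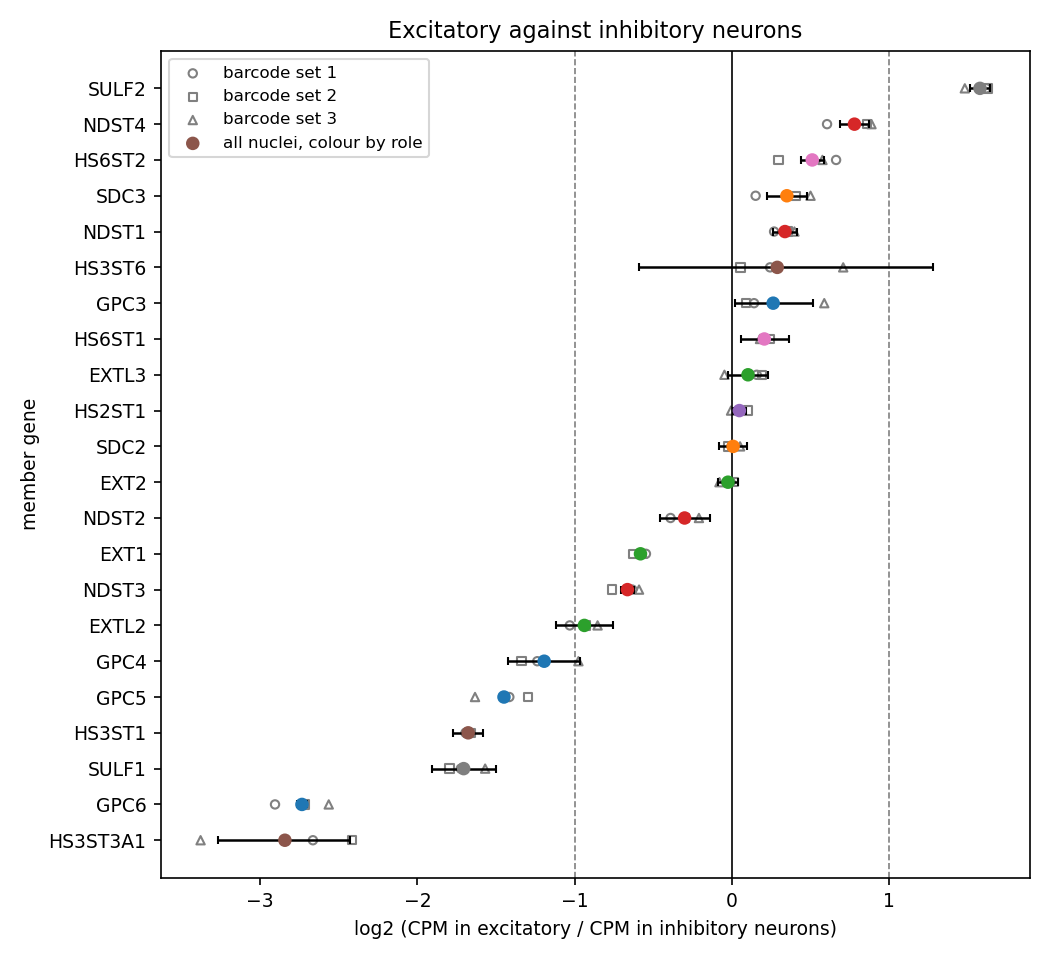
Log2 ratio of CPM in excitatory to inhibitory neurons for the 22 measured members (filled points coloured by role, with exact conditional 95% intervals; open symbols are the 3 barcode sets; dashed lines mark 2-fold). SULF2 lies alone beyond the right line, and GPC4, GPC5, HS3ST1, SULF1, GPC6 and HS3ST3A1 lie beyond the left.

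The pathway lists showed both directions between the neuron classes. XYLT1 was at 1188 CPM in excitatory and 211 CPM in inhibitory neurons (2.49), the only higher gene of 12 measured linker and precursor enzymes, and SLC35D2 the only lower one (-1.20). Of 11 other heparan sulfate proteoglycans, CD44 was higher (2.88) and 4 were lower, led by SPOCK3 (-3.26), AGRN (-2.18) and TGFBR3 (-1.35). The protein partners had 3 higher of 22, the axon guidance ligands SLIT3 (4.27), SLIT1 (2.14) and SLIT2 (1.57), and 7 lower, led by LRRTM3 (-2.85), FGF13 (-2.42) and FGF9 (-1.57). Chondroitin sulfate enzymes had 3 of 13 in each direction, UST (2.66), CHST9 (1.63) and DSE (1.63) higher and CSGALNACT1 (-2.82), CHST7 (-2.16) and CHPF (-1.01) lower. None of the 7 measured genes of shedding and breakdown reached 2-fold.

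Within the excitatory neurons, 1 cluster with the highest level of PROX1, a transcription factor, held 5166 of 11104 nuclei and had lower levels of several chain enzymes than the other excitatory neurons summed. Of 20 measured members 6 were at least 2-fold lower in it than in the 5938 other excitatory nuclei and 1 was higher, against background shares of 7.62% lower and 5.53% higher. The members' median was -0.42 log2 units, beside 0.07 over all genes kept out of the clustering. EXT1 stood at 215, 200 and 204 CPM in the cluster and 793, 791 and 810 CPM in the others (-1.95, -1.99 to -1.91). NDST4 was at 12.9, 10.2 and 11.2 CPM against 99.7, 107 and 115 CPM (-3.23, -3.39 to -3.07), and NDST3 differed by -2.04. HS3ST1 (-3.03), GPC6 (-1.83) and HS6ST2 (-1.61) were lower too. The sets did not overlap for any of these. By sub-cluster, EXT1 (172 to 222 CPM) and HS3ST1 (3.14 to 5.07 CPM) were below all 10 other excitatory sub-clusters. The 4 other genes were as low in some of those: E2 held 8.49 CPM of NDST4, 37.8 CPM of NDST3 and 40.8 CPM of GPC6, and E10 held 10.4 CPM of HS6ST2.

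GPC4 was the member that was higher in the PROX1 cluster, at 10.2, 9.25 and 10.7 CPM against 2.17, 1.81 and 1.54 CPM (2.44, 2.13 to 2.76). LRRTM4, a postsynaptic adhesion protein known to bind glypicans, was at 3160 against 592 CPM (2.42). XYLT1 was lower, 102 against 1708 CPM (-4.06), and SPOCK3 higher, 584 against 32.5 CPM (4.17). CD44 was higher by 1.84, NRXN3 differed by -1.72, and SGSH, of the breakdown list, by -1.34. GLCE, the epimerase of the chain, was higher by 1.29 and PAPSS2 differed by -1.11. Of 22 protein partners, 5 were lower, with ROBO2 (-1.57), ROBO1 (-1.49) and GPR158 (-1.48) furthest. In the chondroitin sulfate list DSEL (2.17), UST (2.01) and CHST9 (1.95) were higher and DSE (-2.74) and CSGALNACT1 (-1.22) lower, of 13 measured. The 3 sub-clusters of this cluster were shallower, with medians of 4560.5 to 6401 UMIs against 8134.5 to 12464 in the other 10, and held more GAD1 RNA, 46.2 to 77.1 CPM against 3.28 to 9.97 CPM. The part of that GAD1 RNA in the result was not tested. The PROX1 cluster was named excitatory on limits of 75 CPM of SLC17A7, 45 CPM of SV2B and 600 CPM of RBFOX3. It held 109, 50.5 and 891 CPM of these. Other excitatory clusters held 83.5 to 160 CPM of SLC17A7 and 146 to 272 CPM of SV2B. Astrocytes held 71.5 and 38.5 CPM, and microglia 101 and 48.1 CPM. With every nucleus thinned to 1000 UMIs the GPC4 difference was 2.46, on too few UMIs to count as measured.

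Members also differed among finer divisions of the neurons. Of 21 members measured among 14 inhibitory sub-clusters, 15 reached 2-fold over the average of the other sub-clusters somewhere (71.4%), against 22.7% of all genes kept out of the clustering. Among 13 excitatory sub-clusters it was 14 of 22 (63.6%), against 26.6%. All 3 sets showed the direction for each leading member. The members called on both sides number 12: EXT1, GPC3, GPC4, GPC5, GPC6, HS3ST1, HS6ST2, NDST3, NDST4, SDC2, SULF1 and SULF2. SDC3, EXTL2 and HS3ST3A1 were called among inhibitory sub-clusters alone, and HS3ST6 and HS6ST1 among excitatory ones alone. A difference between both sides was not tested. Sub-clusters are named by number (I, inhibitory; E, excitatory) and by subtype markers that reach 2-fold over the other sub-clusters.

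**Figure D4:**
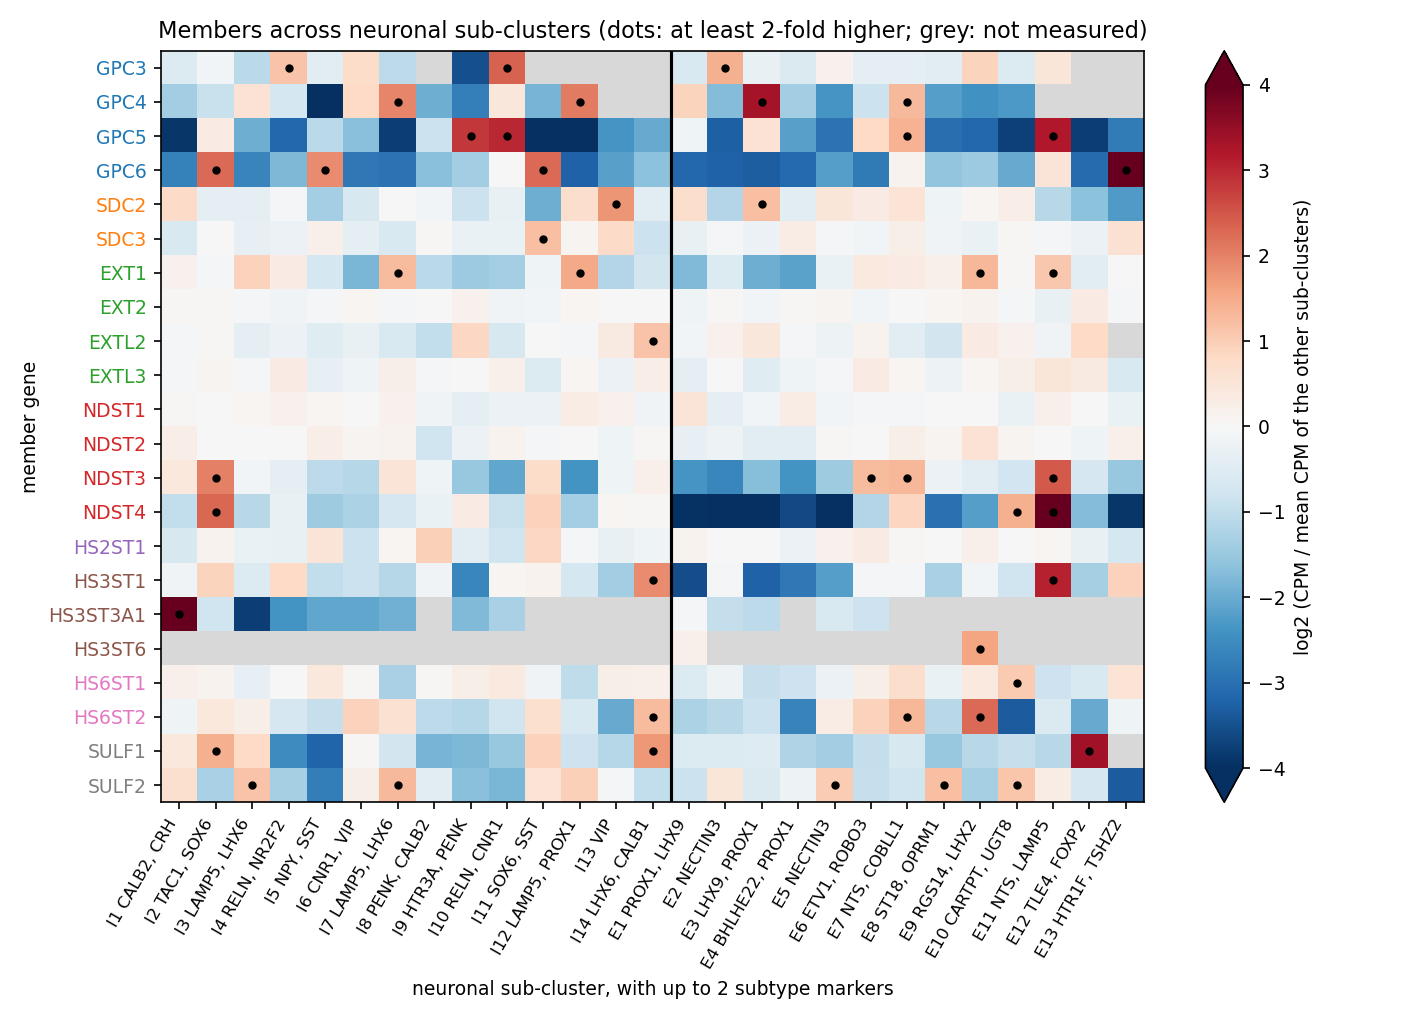
Log2 ratio of each member's CPM in a sub-cluster to its mean in the other sub-clusters of the same neuron class (left, 14 inhibitory; right, 13 excitatory; black dots, at least 2-fold higher; grey, not measured; colours stop at 4 and -4). GPC5, GPC6, NDST4, HS3ST3A1, HS3ST1, SULF1 and GPC4 are among the rows with strong colours, and the rows of EXT2, EXTL3, NDST1 and NDST2 are pale throughout.

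Among inhibitory neurons the 2 neighbouring glypicans marked different sub-clusters. GPC5 stood at 4282, 4034 and 5004 CPM in I9 (HTR3A, PENK, CNR1) and at 4284, 5406 and 4907 CPM in I10 (RELN, CNR1, ADARB2). These 2 held 12.6% of inhibitory nuclei in sub-clusters and 70.1% of the GPC5 UMIs. The lowest level was 36.4 CPM in I11 (SOX6, SST, NPY), 132-fold below I10. GPC6 was highest in other sub-clusters: I11 had 2159, 2482 and 2316 CPM, I2 (TAC1, SOX6, LHX6) 2495, 2356 and 1986 CPM, and I5 (NPY, SST, TAC1) 1903, 1875 and 1845 CPM. Those 3 held 24.1% of the nuclei and 81.8% of the GPC6 UMIs. None of the 14 was at least 2-fold high for both genes. I2 held 1101 CPM of GPC5 as well, above the median of 241 CPM over the 14. Across the 14 sub-clusters the log2 levels of both genes had a Pearson r of 0.29 and a Spearman rho of 0.43, given as a description of points that share the pool and its libraries.

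**Figure D5:**
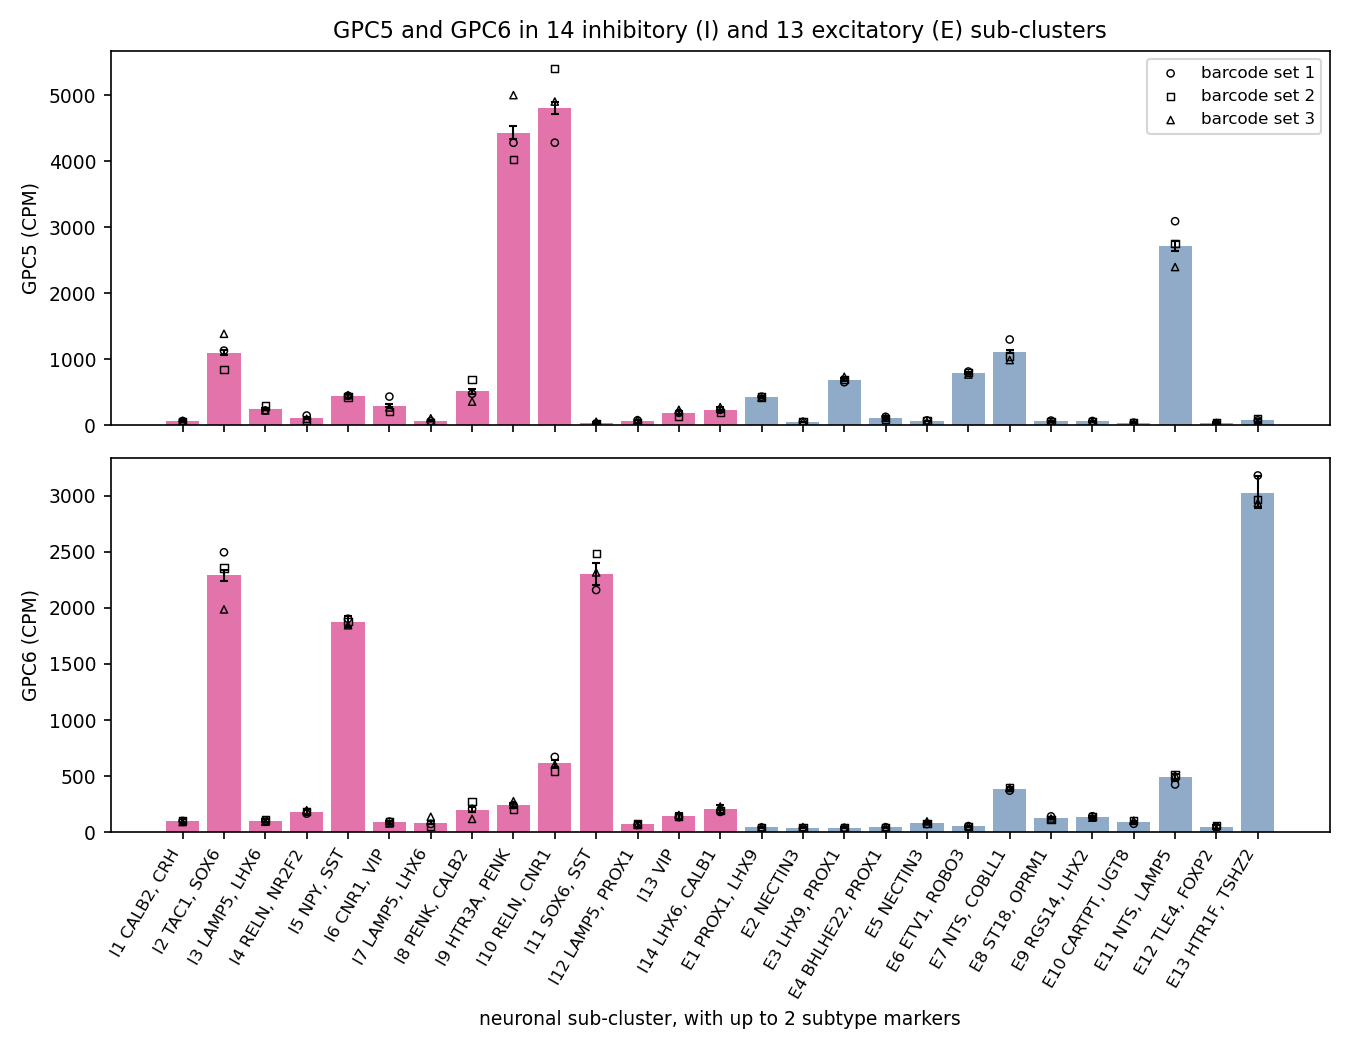
CPM of GPC5 (top) and GPC6 (bottom) in 14 inhibitory (pink) and 13 excitatory (blue) sub-clusters, with exact 95% Poisson intervals; open symbols are the 3 barcode sets. GPC5 peaks in I9, I10 and E11 and GPC6 in I2, I5, I11 and E13, and no sub-cluster reaches 2-fold over the others for both, though I2 holds 1101 CPM of GPC5 and E11 489 CPM of GPC6.

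HS3ST3A1 had the largest ratio of any member among inhibitory sub-clusters. I1, which carried CALB2, CRH, VIP and PROX1, stood at 41.9, 45.2 and 72.6 CPM, and the mean of the other 13 was 1.80 CPM, a 29.7-fold difference. It rests on 101 UMIs in 58 of 453 nuclei, and I1 held 72.1% of all inhibitory HS3ST3A1 UMIs. The next level was 4.27 CPM in I13 (VIP), on 3 UMIs. With nuclei thinned to 1000 UMIs the difference was 4.04 log2 units in place of 4.89.

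NDST3 and NDST4 were high together in 1 inhibitory sub-cluster. I2 held 779, 747 and 724 CPM of NDST3 and 153, 141 and 159 CPM of NDST4, and with 11.01% of nuclei it gave 40.1% of the NDST3 and 46.5% of the NDST4 UMIs. I11 was second for both, at 359 and 70.7 CPM. In the reference annotation NDST4 and NDST3 lie near each other with 3 protein-coding genes between them. Their log2 levels had a Pearson r of 0.65 over the 14 inhibitory and 0.83 over the 13 excitatory sub-clusters, which are descriptions only.

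Other enzymes and core proteins had their own inhibitory sub-clusters. EXT1 was at 2017, 1995 and 2062 CPM in I7 (LAMP5, LHX6, CCK) and at 2415, 2500 and 2149 CPM in I12 (LAMP5, PROX1), and at 277 CPM in I6 (CNR1, VIP, CCK). GPC4 was high in the same 2, 34.6 and 36.9 CPM, with a mean of 8.89 CPM outside I7. SULF2 reached 186 CPM in I3 (LAMP5, LHX6) and 200 CPM in I7, and its lowest level was 14.3 CPM in I5. I14 (LHX6, CALB1), with 98 nuclei, was at least 2-fold high for HS3ST1 (224 CPM), SULF1 (43.3 CPM), HS6ST2 (155 CPM) and EXTL2 (34.4 CPM). SDC2 was highest in I13 at 177 CPM and SDC3 in I11 at 55.1 CPM. GPC3 reached 24.2 CPM in I10 and 12.4 CPM in I4 (RELN, NR2F2, LAMP5), and SULF1 36.3 CPM in I2. I6 and I8 (PENK, CALB2, PROX1) were high for no member. The calls of EXTL2 in I14 (0.98 without set 3), GPC3 in I4 (0.88 without set 3), SDC3 in I11 (0.99 without set 1) and SULF1 in I2 (0.71 with thinning) did not hold under every alternative. With thinning, I14 moved from 1.28 to 1.88 for HS6ST2 and from 1.74 to 2.53 for SULF1.

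Among excitatory neurons, 2 small sub-clusters carried the largest ratios. E13 (HTR1F, TSHZ2, RSPO2), with 72 nuclei, held 3180, 2965 and 2936 CPM of GPC6, 23.0-fold above the mean of the others, and every nucleus had a UMI. E11 (NTS, LAMP5, ETV1), with 149 nuclei, held 1089, 1257 and 1220 CPM of NDST4, 15.8-fold above the mean of the others. E11 was also at least 2-fold high for GPC5 (2714 CPM), HS3ST1 (184 CPM), NDST3 (882 CPM) and EXT1 (1389 CPM), 5 members in all. With 1.34% of excitatory nuclei it held 16.1% of the HS3ST1 UMIs. EXT1 in E11 was at 0.99 log2 units without barcode set 3.

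E10 (CARTPT, UGT8, CUX2) came second for NDST4, at 393, 344 and 407 CPM, and was high for SULF2 (478 CPM) and HS6ST1 (41.5 CPM). The HS6ST1 call rests on a value near the threshold, 1.06 log2 units, and was 0.98 and 1.00 without sets 2 and 3 and 0.21 with thinning. SULF2 was also high in E8 (ST18, OPRM1), at 505 CPM, and in E5 (NECTIN3), at 454 CPM, where it was 0.95 log2 units with thinning. SULF1 reached 42.1 CPM in E12 (TLE4, FOXP2), 10.3-fold above the mean of the others, on 41 UMIs in 17 of 107 nuclei, of which the top 4 nuclei gave 48.8%. E9 (RGS14, LHX2) was high for HS6ST2 (370, 350 and 369 CPM), EXT1 (1602 CPM) and HS3ST6 (1.47 CPM on few UMIs).

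E7 (NTS, COBLL1) was high for GPC5 (1114 CPM), HS6ST2 (219 CPM), NDST3 (486 CPM) and GPC4 (8.09 CPM), and E6 (ETV1) for NDST3 (469 CPM). Within the PROX1 cluster GPC4 was uneven: E3 held 20.8, 19.3 and 26.0 CPM, E1 6.39 CPM and E4 1.48 CPM. E3 was also high for SDC2, at 95.1 CPM, and E1 and E4 were high for no member. GPC3 was highest in E2 (NECTIN3) at 16.7 CPM, and its difference was 0.63 log2 units with thinning. Again no sub-cluster was at least 2-fold high for both GPC5 and GPC6.

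A core of enzymes varied little among neurons. EXT2 ranged from 104 to 128 CPM over the 14 inhibitory sub-clusters, a 1.23-fold range, and from 92.8 to 138 CPM over the 13 excitatory ones. NDST1 had ranges of 1.55-fold and 1.78-fold, EXTL3 of 1.75-fold and 2.03-fold, and NDST2 of 2.01-fold and 1.90-fold. HS2ST1 varied 3.19-fold among inhibitory and 1.98-fold among excitatory sub-clusters, with no sub-cluster 2-fold above the mean of the others. EXT1, by contrast, had ranges of 8.55-fold and 9.30-fold. SDC4 had 18 UMIs among the inhibitory and 42 among the excitatory sub-clusters and was not measured there.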

How the data were processed

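Libraries of nuclear RNA were made with the 10x Genomics 3′ kit, per the labels' protocols. The authors deposited 1 table of raw UMI counts, whole numbers from 0 to 705. The submitters' processing notes name fastp, Cell Ranger 3.0.0 and the build GRCh38, yet 5142 rows carry macaque Ensembl identifiers (a reference table gave symbols to 797), so the build is not settled and no coordinates are given. Columns that belong to no sample number 0.

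Members and gene lists were chosen with earlier results of these data known. All nuclei had at least 200 genes (0 fell below), with a median of 5053.5 UMIs and 2452 genes; the 3 barcode sets held 9201, 8900 and 8299 nuclei and shared 20 to 26 barcodes pairwise. Scrublet in scanpy 1.11.5 scored doublets per set, and the top 0.8% per 1000 nuclei were removed (677, 634 and 551 nuclei). Clustering used 9854 genes, with Leiden resolution 0.5; the 9854 held-out genes, which include all members and lists, gave the comparisons. Naming thresholds, including a limit of 0.06 on a cluster's median doublet score, were set after seeing the data. UMIs were summed per class; CPM, exact intervals and ratios followed in scipy 1.17.1. At least 2-fold counted as a difference. A side of a comparison with 0 UMIs in all was read as a limit of 3 counts. Within a mean of classes or sub-clusters, those with 0 UMIs entered as 0 CPM. Scripts were tested on simulated data. The planned count model over specimens could not be run because columns are tied to no specimen. Text names every member past 2-fold and, per pathway list and comparison, up to 3 genes per direction by ratio. Alternatives tried were each barcode set left out, thinning, weighting by nucleus, other level and fold minimums, doublets kept, other naming, clustering and resolution, and leaving out the PROX1 cluster. Some genes of the lists are not reported here.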

Additional observations from a re-analysis of the deposited data

How the results depend on the processing

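No paired analysis was possible because the columns carry no replicate numbers and no result comes from a test. Most counts stayed within 1.5 times their value, with these exceptions. For members higher in GFAP-high astrocytes, 1 in the main analysis, leaving out 1 barcode set gave 0 to 1, keeping presumed doublets 0, no level minimum 2 and a 1.5-fold threshold 3; for members lower there, also 1, the count was 2 with doublets kept and 0 at resolution 1.0. Members higher in the PROX1 cluster numbered 0 with thinning and 2 at 1.5-fold, and those higher in excitatory than inhibitory neurons 2 at 1.5-fold and 2 without that cluster. Members higher in oligodendrocytes than precursors numbered 2 with no level minimum and 2 without the rule on doublet scores. Member and class pairs numbered 57 of 250 with no level minimum (22.8%, background 33.1%) and 38 of 178 at 1.5-fold (21.3%, background 17.4%). With no level minimum the members' share was thus below the background, unlike in the main analysis. Members higher in at least 1 sub-cluster were then 76.0% (inhibitory) and 72.0% (excitatory), against backgrounds of 51.3% and 52.0%. Excitatory sub-clusters had 9 of 19 members with thinning (47.4%, background 25.8%). HS3ST3A1 between GFAP-high and GFAP-low astrocytes reversed, to -1.70 with doublets kept and -2.61 with clustering on all genes but members and lists, where its RNA sat in a separate GFAP-low cluster. The 94 called values were computed again under the alternatives, which gave 669 alternative values. Of these, 510 moved by less than their interval, 157 by more and 2 reversed. Under 2-fold in the same direction were 41, over 20 of the called values. Depth limits the smaller glial and vascular classes, where members of few UMIs could not be measured.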
